A study of Homo sapiens with 3 samples.

Results

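The genes described here encode the platelet-derived growth factors and their receptors: the 4 ligands PDGFA, PDGFB, PDGFC and PDGFD and the receptors PDGFRA and PDGFRB. They were chosen by symbol, as every probe set whose platform annotation gives only 1 of these symbols, which took 15 of 54675 probe sets and 6 of 19775 genes. Signals were measured on 3 expression arrays, 1 for each of 3 stably selected lines made from HT1080, an established human fibrosarcoma line. The RECK line carries a pZeoSV2(+) vector for RECK, the RECK/4NQ line the same vector for a RECK whose 4 glycan-bearing asparagines were changed to glutamine, and the Zeo line was mock-transfected. All were cultured under Zeocin selection (50 µg/mL) with 10% serum (FCS). The labels do not say whether each line is a clone or a pool, and serum holds growth factors of its own. With 1 array per line there is no replicate spread and no test, and anything else that differs between the lines cannot be told apart from the transfected gene.

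PDGFs are secreted dimers that bring a pair of receptor tyrosine kinases together at the cell surface. The A and B chains are cut inside the cell by furin-like convertases. The C and D chains leave the cell in a latent form and are activated outside it, the C chain by tissue plasminogen activator and the D chain by urokinase. PDGFRA binds the A, B and C chains and PDGFRB the B and D chains. In connective tissue, PDGFs drive growth and migration of fibroblasts and recruit pericytes and smooth muscle cells to vessels. RECK, a glycoprotein held at the cell membrane, is known for inhibiting matrix metalloproteinases.

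The upstream sequences of the receptors are shown because PDGFRB was higher in RECK than in both other lines and PDGFRA gave weak signals, below the floor on the RECK array. RefSeq windows of 300 bases (GRCh38.p14, 250 before and 50 after a transcript start) were matched by symbol for 4 of the 6 genes, with 8 windows in all. Capitals mark the letters CCAAT, the box bound by the factor NF-Y, searched on both strands.
PDGFRB, chr5:150155796-150156095, minus strand: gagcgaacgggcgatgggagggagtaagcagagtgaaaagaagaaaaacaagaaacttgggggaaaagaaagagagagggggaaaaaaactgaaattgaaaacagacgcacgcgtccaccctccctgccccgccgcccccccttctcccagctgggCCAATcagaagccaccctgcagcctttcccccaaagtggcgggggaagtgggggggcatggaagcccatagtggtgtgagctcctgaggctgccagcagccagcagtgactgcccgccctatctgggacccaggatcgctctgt
PDGFRA, upstream start, chr4:54229043-54229342, plus strand: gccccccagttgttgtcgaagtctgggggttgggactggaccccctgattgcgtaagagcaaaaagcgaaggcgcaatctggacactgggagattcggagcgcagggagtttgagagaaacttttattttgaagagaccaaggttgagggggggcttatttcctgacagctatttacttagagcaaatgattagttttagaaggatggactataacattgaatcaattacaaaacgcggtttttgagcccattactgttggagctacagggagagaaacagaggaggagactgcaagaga
PDGFRA, downstream start, chr4:54233710-54234009, plus strand: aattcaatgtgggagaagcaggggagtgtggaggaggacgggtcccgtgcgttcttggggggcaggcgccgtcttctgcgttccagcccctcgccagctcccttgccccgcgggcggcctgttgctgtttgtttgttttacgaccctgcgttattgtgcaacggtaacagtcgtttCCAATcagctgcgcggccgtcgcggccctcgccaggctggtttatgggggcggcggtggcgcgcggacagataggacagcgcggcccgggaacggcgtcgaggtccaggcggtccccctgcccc
The PDGFRB window held 1 CCAAT, 94 bases before the start, and the downstream PDGFRA window 1, 74 bases before its start. The upstream PDGFRA window held 0. At both places the letters read CCAATCAG. Of 35116 windows, 34.6% held CCAAT and 3.97% held CCAATCAG, on either strand. These matches describe the letters in the windows only.

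The deposited values are MAS5 signals, intensities on a linear scale. A floor was set at 12.25, the 40th percentile of all values, and signals below it were raised to it before ratios were taken. A gene was read from its brightest probe set, and called higher or lower when the floored signals differed at least 2-fold. Where 1 of the signals lies below the floor the fold is a lower bound. Of the 15 member probe sets, 4 were at or above the floor on every array, 6 on some arrays and 5 on none. The brightest of 5 RECK probe sets, of a kind that can share probes with other genes, had a signal of 387 on the RECK array, 442 on the RECK/4NQ array and 264 on the Zeo array. The others were at or below 26.2, and 1 of them ran the other way, at 2.08 in RECK, 11.3 in RECK/4NQ and 26.2 in Zeo. It is not known here if any of them reads the transfected cDNA, so they do not check the labels. All 6 mesenchymal markers, listed to check the labelled fibrosarcoma line, were above the floor on each array, with VIM between 10307 and 10704. EPCAM, the defining epithelial marker of the 6 listed, was at or below 3.60 on every array, while the keratins KRT8 and KRT18 were above 1039.

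**Figure D1:**
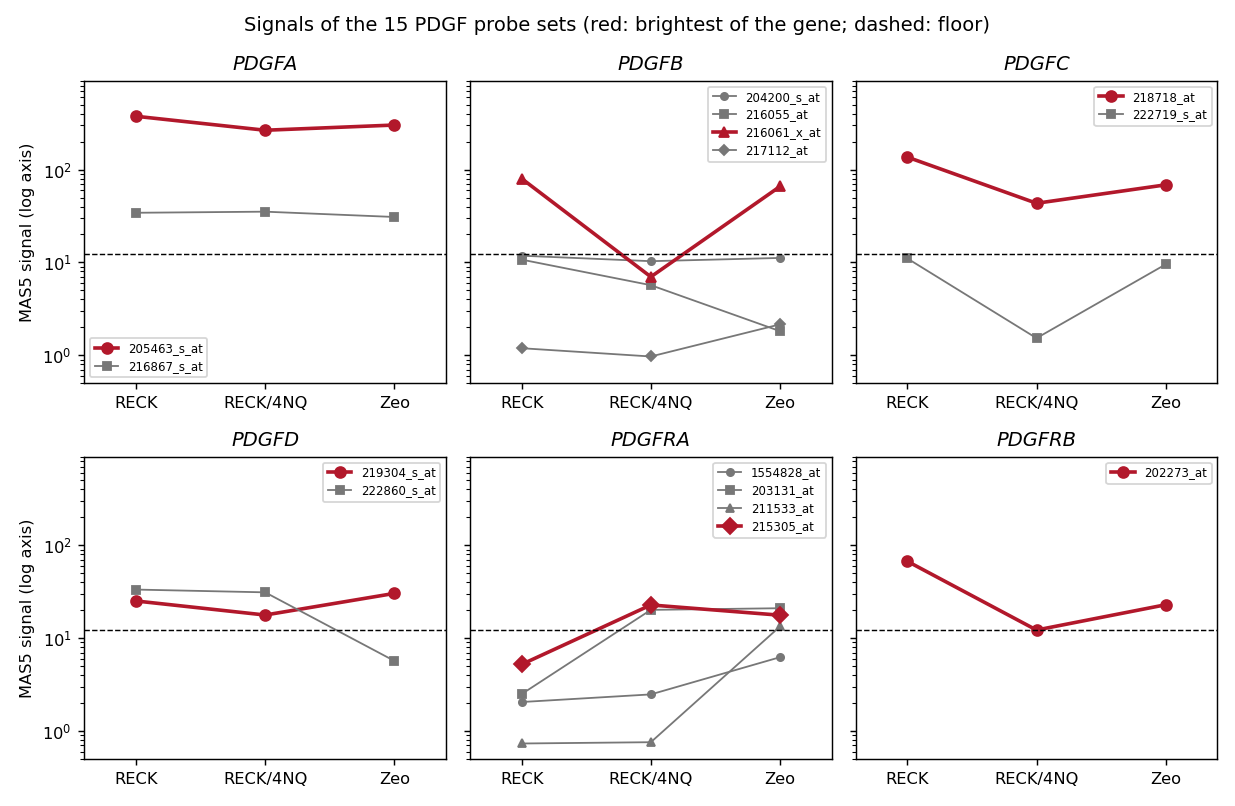
MAS5 signal (log axis) of each PDGF probe set on the RECK, RECK/4NQ and Zeo arrays, 1 panel per gene. Lines join the values of 1 probe set, red marks the brightest of the gene and the dashed line is the floor of 12.25. PDGFRB is highest on the RECK array at 67.3, and PDGFRA probe sets are all below the floor there.

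In the RECK line PDGFRB was higher than in either other line, and PDGFC was higher than in the RECK/4NQ line. PDGFB was lower in RECK/4NQ by the 1 of its 4 probe sets that reached the floor. PDGFA, with 2 probe sets, differed by at most 1.41-fold between any 2 arrays. In RECK over Zeo, 1 of the 6 genes was at least 2-fold higher (PDGFRB) and 0 lower, where 4.03% of all genes were higher and 6.7% lower. In RECK/4NQ over Zeo, 0 were higher and 1 was lower (PDGFB), where 2.81% of all genes were higher and 7.13% lower. In RECK over RECK/4NQ, 3 were higher (PDGFB, PDGFC and PDGFRB) and 0 lower, where 5.76% of all genes were higher and 4.47% lower. The comparisons share arrays, so a high value on the RECK array enters both ratios that contain it.

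The median log2 ratio of the 6 genes was 0.30 in RECK over Zeo, -0.72 in RECK/4NQ over Zeo and 1.08 in RECK over RECK/4NQ. Over the 14282 genes whose mean level reached the floor it was -0.19, -0.12 and -0.06. After quantile normalisation 5.38% of all genes were higher and 4.64% lower in RECK than in Zeo. For RECK/4NQ against Zeo these shares became 3.96% and 4.62%. In 4 of the 6 genes (PDGFA, PDGFB, PDGFC and PDGFRB) the brightest probe set was highest in RECK, next in Zeo and lowest in RECK/4NQ, an order found in 14.7% of those 14282 genes. For PDGFA this order rests on differences about as large as those usual at its level. Each of the others also has a step no larger than is usual at its level. For PDGFB it is RECK over Zeo, at 1.21-fold. For PDGFC and PDGFRB it is RECK/4NQ below Zeo, by 1.58-fold and at least 1.87-fold, with the PDGFRB signal in RECK/4NQ under the floor.

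PDGFRB, the receptor for the B and D chains and a marker of pericytes, was measured by 1 probe set. Its signal was 67.3 in RECK, 12.22 in RECK/4NQ and 22.9 in Zeo. RECK stood above both other lines, and the RECK/4NQ value lay just under the floor. The signal in RECK was 2.94-fold that in Zeo, a log2 ratio of 1.55. For scale, a robust spread (from the median absolute deviation) was taken over ratios of the 1000 genes closest to it in level, and includes true differences. The PDGFRB ratio lay 2.46 spreads above the median of those genes, of which 8.6% were at least 2-fold higher. Over RECK/4NQ it was at least 5.49-fold higher, 2.81 spreads above the median, and 14.9% of the genes nearest in level were also called higher. RECK/4NQ over Zeo had a log2 ratio of -0.90, short of 2-fold. In RNA of whole cultures, more cells with the transcript and more transcript per cell cannot be told apart. The call in RECK is therefore read from a single weak probe set, and all 3 signals would lie below a floor set at the 80th percentile (96.2).

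Since PDGFRB marks mural cells, other markers of pericytes and smooth muscle were set beside it. Of the 8 listed, 8 were at or above the floor in RECK, 5 in RECK/4NQ and 6 in Zeo, and none was at 0. Their summed signal was 1972 in RECK, 1236 in RECK/4NQ and 1238.5 in Zeo, most of it from the adhesion molecule MCAM. In RECK over Zeo 1 was higher, the potassium channel gene KCNJ8 (29.5 in RECK, 9.22 in Zeo), and 1 was lower, the proteoglycan gene CSPG4. Of all genes, 4.03% were higher there and 6.7% lower. The part of these 8 markers in the PDGFRB result was not tested.

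PDGFRA, the receptor for the A, B and C chains, was at or below 22.8 in every one of its 4 probe sets on every array. The brightest had a signal of 5.21 in RECK, 22.8 in RECK/4NQ and 17.7 in Zeo. A second read 2.50 in RECK, 20.2 in RECK/4NQ and 21.0 in Zeo. These 2 were above the floor in RECK/4NQ and Zeo and below it in RECK. Another was above the floor only in Zeo, at 13.4, and the last on no array. No comparison reached 2-fold above the floor. With the floor at the 20th percentile of all values (4.09), the brightest probe set was 3.39-fold lower in RECK than in Zeo and 4.37-fold lower than in RECK/4NQ.

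**Figure D2:**
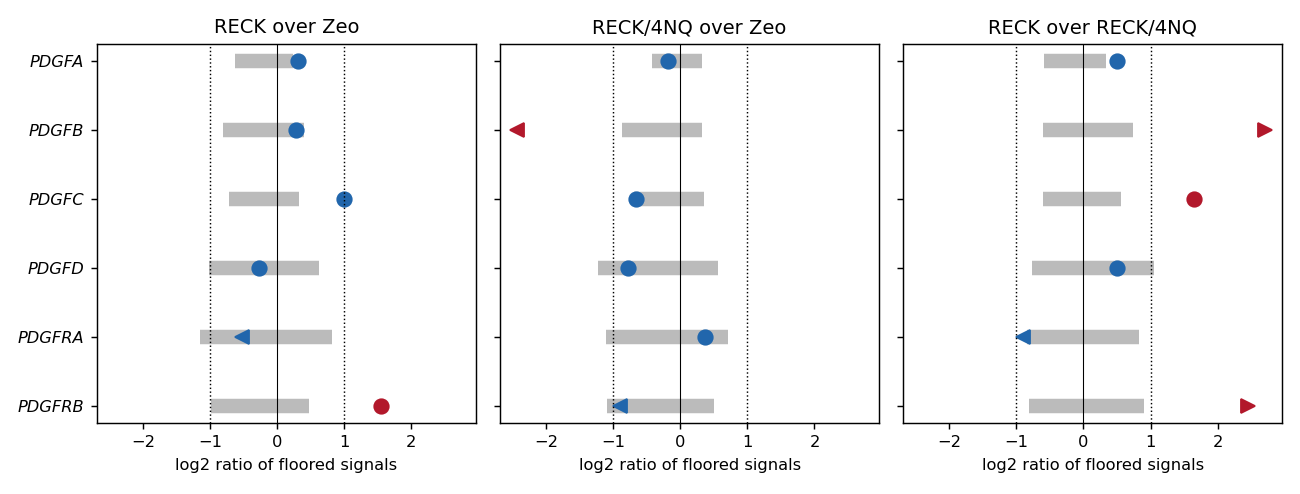
Log2 ratio of floored signals for the 6 genes (brightest probe set) in each comparison. Red is at least 2-fold, blue is not, triangles are bounds set by the floor, and grey bars span 1 robust spread on either side of the median of the 1000 genes nearest in level. PDGFRB, PDGFC and PDGFB lie right of the 2-fold line in RECK over RECK/4NQ.

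PDGFC, a ligand of PDGFRA that is secreted latent, had a signal of 136 in RECK, 43.4 in RECK/4NQ and 68.6 in Zeo. All 3 values were above the floor, with RECK highest and RECK/4NQ lowest. RECK was 3.14-fold above RECK/4NQ, 2.87 spreads above the median of genes near in level, of which 6.8% were called higher. RECK was 1.99-fold above Zeo, just short of the call and 2.30 spreads above the median. This ratio passed 2-fold once arrays were scaled alike, at a log2 ratio of 1.18 after median centring. RECK/4NQ over Zeo had a log2 ratio of -0.66, short of 2-fold. The second PDGFC probe set was below the floor throughout, at 11.0 in RECK, 1.53 in RECK/4NQ and 9.55 in Zeo. Averaging both gave a log2 ratio of 0.83 for RECK over RECK/4NQ, below the call. The second probe set, under the floor on every array, enters that average with a ratio of 0.

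PDGFD, a ligand of PDGFRB that is also secreted latent, was read differently by its 2 probe sets. The one with the higher mean level had a signal of 25.1 in RECK, 17.7 in RECK/4NQ and 30.3 in Zeo, with Zeo highest. The other had 33.4 in RECK, 31.1 in RECK/4NQ and 5.68 in Zeo, with Zeo below the floor. By the first, RECK over Zeo had a log2 ratio of -0.27 and RECK/4NQ over Zeo one of -0.77. By the second, PDGFD was at least 2.72-fold higher in RECK and at least 2.54-fold higher in RECK/4NQ than in Zeo. No direction can be given for PDGFD from these arrays.

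PDGFA, the ligand chain of PDGF-AA, had a signal of 376 in RECK, 266 in RECK/4NQ and 302 in Zeo by its brightest probe set. The other read 34.3 in RECK, 35.2 in RECK/4NQ and 30.9 in Zeo. Both were above the floor on every array and neither reached 2-fold. In RECK over Zeo the first had a log2 ratio of 0.31, in RECK/4NQ over Zeo -0.19 and in RECK over RECK/4NQ 0.50, at most 1.35 spreads from the median of genes near in level.

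PDGFB, the chain that binds both receptors and the gene fused to COL1A1 in dermatofibrosarcoma protuberans, had only 1 of 4 probe sets above the floor, on 2 arrays. That probe set had a signal of 80.1 in RECK, 7.00 in RECK/4NQ and 66.0 in Zeo. RECK/4NQ alone was below the floor, so the fold was at least 5.38-fold lower than in Zeo, where 11.6% of the genes near in level were lower. RECK over RECK/4NQ was at least 6.54-fold, with 10.2% of the genes near in level higher. Its name ends in _x_at, the kind of probe set that can match several transcripts. The probe set with the next highest mean level read 11.8 in RECK, 10.3 in RECK/4NQ and 11.2 in Zeo, all under the floor, and without shared probe sets no PDGFB ratio could be told from 0.

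For PDGFC, the called member with all 3 signals above the floor, the genes with the most similar pair of ratios to Zeo were sought among 12405 others above the floor on all 3 arrays. The nearest by Euclidean distance were GADD45A (distance 0.055 on the log2 scale), EML1 (0.058) and EEPD1 (0.076). GADD45A, a growth arrest gene, had a signal of 563 in RECK, 189 in RECK/4NQ and 292 in Zeo. With 3 arrays such a likeness rests on 2 ratios and is a description only.

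Genes that activate or hold PDGFs outside the cell were read next. CSPG4 (NG2), a proteoglycan known to bind PDGF-AA, was lower in RECK than in either other line. It had a signal of 15.3 in RECK, 58.0 in RECK/4NQ and 99.8 in Zeo, with a second probe set at 2.66 in RECK, 33.4 in RECK/4NQ and 77.5 in Zeo. Both gave the same order of lines, and the first was 6.54-fold lower in RECK than in Zeo. The convertase gene PCSK6 was 2.41-fold lower, at 17.8 in RECK against 42.9 in Zeo. These were the 2 of 10 listed genes lower in RECK than in Zeo, with 0 higher and 8 not past 2-fold. Of all genes, 6.7% were lower there and 4.03% higher. FURIN, which cuts the A and B chains, read 272 in RECK, 244 in RECK/4NQ and 252 in Zeo. PLAT, the activator of PDGF-C, read 482 in RECK, 330 in RECK/4NQ and 573 in Zeo. PLAU, the activator of PDGF-D, read 5990 in RECK, 6823 in RECK/4NQ and 9750 in Zeo, and none of these 3 passed 2-fold. NRP1, a co-receptor for several growth factors, read 261 in RECK, 244 in RECK/4NQ and 221 in Zeo. In RECK/4NQ over Zeo, 0 of the 10 passed 2-fold in either direction. In RECK over RECK/4NQ the same 2 genes were lower and 0 higher, where 4.47% of all genes were lower. With probe sets averaged, CSPG4 was the 1 gene still called in each of the comparisons with a call, and PCSK6 was not.

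Of 13 measured genes for adaptors and kinases next to the receptors, 2 were lower in RECK than in Zeo and 0 higher, while 11 did not reach 2-fold. Of all genes, 6.7% were lower there and 4.03% higher. The list had a median log2 ratio of -0.22, against -0.19 for the 14282 genes whose mean level reached the floor. The adaptor NCK1 read 31.6 in RECK, 61.0 in RECK/4NQ and 81.3 in Zeo, and the SRC family kinase YES1 read 18.5 in RECK, 24.9 in RECK/4NQ and 55.2 in Zeo. A second NCK1 probe set read 37.9 in RECK, 34.1 in RECK/4NQ and 62.4 in Zeo, short of 2-fold. YES1 was also lower in RECK/4NQ than in Zeo, by 2.21-fold, the 1 call of this list there. The share of all genes lower in that comparison was 7.13%. In RECK over RECK/4NQ 0 of the 13 passed 2-fold. With probe sets averaged, or without shared probe sets, 0 genes of this list were called in any comparison, so its calls rest on the choice of probe set. By their brightest probe sets, the adaptors GRB2 and SHC1, the phosphatase PTPN11 and PLCG1 differed by less than 1.4-fold between any pair of arrays. Other probe sets of SHC1, PTPN11 and PLCG1 differed more. Among them were SHC1 at 474 in RECK and 753 in RECK/4NQ, and PLCG1 at 105 in RECK and 186 in Zeo.

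Among 7 measured negative regulators, 1 was lower in RECK than in Zeo and 0 higher, while 6 did not reach 2-fold. The share of all genes lower there was 6.7%. The lower gene was PTPN2, a tyrosine phosphatase known to act on PDGFRB, at 44.6 in RECK, 93.9 in RECK/4NQ and 127 in Zeo. That is 2.84-fold lower in RECK than in Zeo and 2.11-fold lower than in RECK/4NQ. A second PTPN2 probe set had 18.5 in RECK, 45.7 in RECK/4NQ and 65.5 in Zeo, while another read 43.6 in RECK, 35.1 in RECK/4NQ and 40.02 in Zeo. The ubiquitin ligase gene CBLB read 63.0 in RECK, 63.4 in RECK/4NQ and 31.9 in Zeo, short of 2-fold. PDGFRL, a receptor-like gene, read 22.7 in RECK, 38.6 in RECK/4NQ and 35.0 in Zeo. In RECK/4NQ over Zeo 0 of the 7 passed 2-fold. In RECK over RECK/4NQ PTPN2 was the 1 that did, where 4.47% of all genes were lower. With probe sets averaged, 0 of the 7 were called in any comparison.

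**Figure D3:**
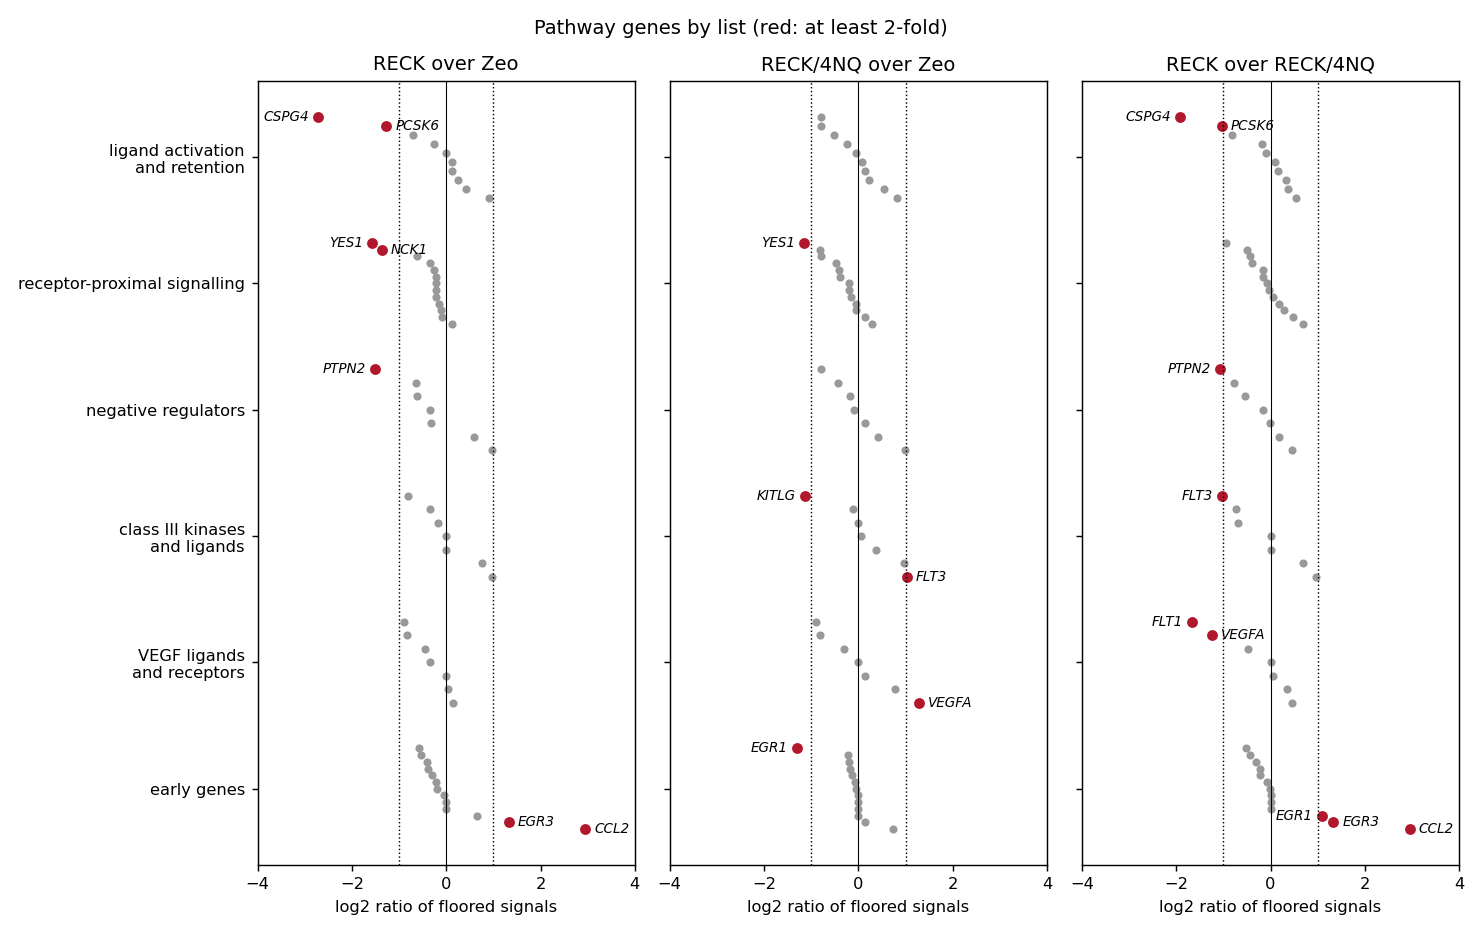
Log2 ratio of floored signals for each measured gene of the pathway lists (brightest probe set), 1 panel per comparison. Red genes are at least 2-fold apart and are named, and dotted lines mark 2-fold. CSPG4 lies far left and CCL2 far right in both comparisons that contain the RECK array.

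Growth factors such as PDGF induce early genes, of which 13 were measured. In RECK over Zeo, 2 of the 13 were higher and 0 lower, while 11 did not reach 2-fold. Of all genes, 4.03% were higher there and 6.7% lower. The chemokine gene CCL2, known from mouse fibroblasts as a PDGF-induced gene, read 94.6 in RECK, 5.32 in RECK/4NQ and 3.42 in Zeo. RECK alone was above the floor, at least 7.72-fold higher than in either other line. CCL2 was read only by a probe set of the shared kind. Without shared probe sets it had no value, and EGR3 alone was called in this list. The transcription factor gene EGR3 read 30.8 in RECK, 1.86 in RECK/4NQ and 8.10 in Zeo, at least 2.52-fold higher in RECK than in Zeo. EGR1 was 2.46-fold lower in RECK/4NQ than in Zeo (20.8 against 51.1), while a second probe set read 36.2 against 35.5 and another 24.1 against 4.91, the other way. In RECK over RECK/4NQ, CCL2, EGR3 and EGR1 were the 3 higher genes and 0 were lower, where 5.76% of all genes were higher. The EGR1 call rests on 1 of its 3 probe sets: the others were lower in RECK than in RECK/4NQ, at 30.3 against 36.2 and 16.5 against 24.1. With probe sets averaged, EGR1 was called in neither comparison. FOS and FOSB were below the floor on every array, and JUN, MYC and IER3 did not pass 2-fold. A median log2 ratio was taken over the 9 early genes whose mean level reached the floor, which leaves out CCL2 and EGR3. It was -0.31 in RECK over Zeo and -0.15 in RECK/4NQ over Zeo. Over the 14282 genes at that level it was -0.19 and -0.12.

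The receptors related to PDGFRA and PDGFRB, the class III kinases, were mostly not measurable. KIT was at or below 6.46 on every array, and FLT3 was above the floor only in RECK/4NQ, at 24.9. CSF1R, the receptor for CSF1, read 152 in RECK, 151 in RECK/4NQ and 77.2 in Zeo, 1.97-fold and 1.96-fold above Zeo. Its ligand gene CSF1 read 1671 in RECK, 1030 in RECK/4NQ and 987 in Zeo, with RECK highest in each of its 4 probe sets. Of 7 genes in this list 0 passed 2-fold in RECK over Zeo, where 4.03% of all genes were higher and 6.7% lower. In RECK/4NQ over Zeo, FLT3 was higher and the KIT ligand gene KITLG lower, each with 1 signal below the floor. The shares of all genes there were 2.81% higher and 7.13% lower. With probe sets averaged, the KITLG call ended.

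Among 7 measured genes of the related VEGF family, 0 passed 2-fold in RECK over Zeo (all genes: 4.03% higher, 6.7% lower). PGF, placental growth factor, read 1183 in RECK, 1139 in RECK/4NQ and 2108 in Zeo, which is 1.78-fold and 1.85-fold lower than in Zeo. FLT1, its receptor, read 37.1 in RECK, 117 in RECK/4NQ and 68.6 in Zeo, 3.17-fold lower in RECK than in RECK/4NQ. The other FLT1 probe sets were at 26.0 or below. VEGFA read 687 in RECK, 1631 in RECK/4NQ and 669 in Zeo. It was 2.37-fold lower in RECK than in RECK/4NQ, and 2.44-fold higher in RECK/4NQ than in Zeo. FLT1 and VEGFA were the 2 genes lower in RECK over RECK/4NQ, and VEGFA the 1 called in RECK/4NQ over Zeo. The shares of all genes were 4.47% lower in the first comparison and 2.81% higher in the second. With probe sets averaged, or without shared probe sets, 0 genes of this family were called in any comparison. Without shared probe sets only 4 of the 7 had a value. VEGFA had none and could not be called there. RECK/4NQ was the highest array in every VEGFA probe set.

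**Figure D4:**
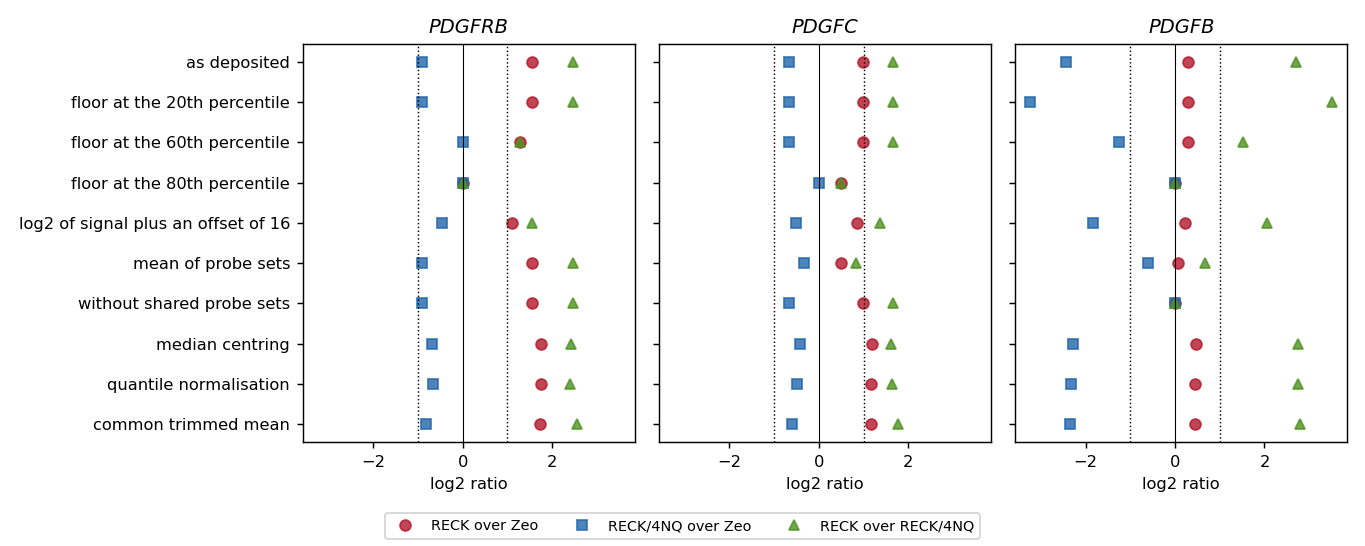
Log2 ratios of PDGFRB, PDGFC and PDGFB under each way of processing, with 1 symbol per comparison and dotted lines at 2-fold. PDGFRB stays right of the 2-fold line for RECK over Zeo under 9 of 10 settings, all but the floor at the 80th percentile. Averaging, leaving out shared probe sets and lowering the floor could not move that ratio. Without shared probe sets the PDGFB signals lie below the floor on every array, which sets its ratios to 0.

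The ratio of PDGFRB in RECK over Zeo ranged from 0 to 1.75 on the log2 scale over 10 ways of processing. It passed 2-fold in 9, the deposited values included. Averaging, leaving out shared probe sets and lowering the floor could not change it from 1.55, so these are not separate checks. The 3-fold call, which it failed, is not among the 10. For PDGFC in RECK over RECK/4NQ the ratio ranged from 0.50 to 1.76 and passed in 8. Leaving out shared probe sets or lowering the floor could not change that ratio either. For PDGFB in RECK/4NQ over Zeo the ratio ranged from -3.24 to 0 and passed in 7.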

How the data were processed

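Total RNA of 3 HT1080 lines was hybridised to 3 Affymetrix arrays, 1 per line, with 8.1 to 15 µg of input according to the protocols in the labels. The authors deposited 1 linear intensity per probe set and array, made with MAS5 per the submitters' processing notes. Its version, its scaling target and a genome build for the array are not stated in these sources. MAS5 corrects each probe by its mismatch partner, which makes weak signals noisy. The number of arrays limits precision. The median signal was 17.9 in RECK, 17.3 in RECK/4NQ and 20.3 in Zeo.

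All ratios were computed here in Python 3.11.15 from the values as deposited. Of 54675 probe sets, 41091 had 1 symbol, 1801 had several, 11721 were not listed with a gene and 62 were controls. Names came from the platform annotation, updated through the RefSeq table of GRCh38.p14, which matched 41037. The brightest probe set by mean log2 signal stood for a gene. Calls and spreads were checked on simulated data. The members and gene lists were chosen with earlier results of these data known. Named were all member probe sets, CSPG4, NRP1 and RECK, and up to 4 called genes per list and comparison. Genes named without a call show what a list holds and were chosen after their values were seen. Some listed genes were not analysed here. Alternatives changed the floor, the probe set rule, the scaling and the fold of a call.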

Additional observations from a re-analysis of the deposited data

How the results depend on the processing

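The number of members past 2-fold in RECK over Zeo was 1 as deposited. It was 2 at a floor of the 20th percentile (PDGFRB higher, PDGFRA lower), 2 after median centring, quantile normalisation or a common trimmed mean and 2 at a 1.5-fold call (PDGFRB and PDGFC in each), and 0 at a floor of the 80th percentile or at a 3-fold call. In RECK/4NQ over Zeo it was 1 as deposited, 4 at a 1.5-fold call (all lower), and 0 at a floor of the 80th percentile, with probe sets averaged or without shared probe sets. In RECK over RECK/4NQ it was 3 as deposited, 1 with probe sets averaged and 0 at a floor of the 80th percentile. The other 20 of 33 counts stayed within 1.5 times. With a floor that high, or without shared probe sets for PDGFB, fewer signals remain above the floor. Averaging takes in PDGFB and PDGFC probe sets that were below the floor on every array, each with a floored log2 ratio of 0. That alone brings these genes below the call, so averaging is not a separate check of them. For the other changes the cause was not tested. No called member ratio changed sign among 156 recomputed ratios, and 25 moved by more than the spread of genes near in level. PDGFD, not called, had log2 ratios of 0.59 in RECK over Zeo and 0.29 in RECK/4NQ over Zeo with probe sets averaged, against -0.27 and -0.77 as deposited. The median of a pathway list, relative to that of all genes, was taken over genes whose mean level reached the floor. It changed sign in 22 of 162 recomputations, so no direction is drawn from these medians. PDGFA and PDGFD have no value without shared probe sets. No paired analysis was possible because each line has 1 array. Weak signals limit most of these results: only 4 of 15 probe sets were at or above the floor on every array.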

Other observations

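PDGFRB lies next to CSF1R in the genome, and PDGFRA next to KIT and KDR, so neighbouring genes were read from the order of protein-coding genes in the RefSeq table, 5 on each side where the chromosome allows. Of the 10 genes around PDGFRB, 1 was at least 2-fold higher in RECK than in Zeo and 0 were lower, with a median log2 ratio of 0. Over all genes the shares were 4.03% higher and 6.7% lower. The higher neighbour was the sulfatase gene ARSI, singled out after its values were seen, at 74.5 in RECK, 4.03 in RECK/4NQ and 10.2 in Zeo. RECK alone was above the floor, at least 6.08-fold higher than in Zeo. As for PDGFRB, RECK was highest, but the order of RECK/4NQ and Zeo rests on ARSI signals below the floor. CSF1R, directly next to PDGFRB, was instead equal in RECK and RECK/4NQ (152 and 151) and lower in Zeo (77.2).

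Around PDGFRA, KIT and KDR were below the floor on every array, while GSX2, on its other side, read 77.2 in RECK, 104 in RECK/4NQ and 79.8 in Zeo. Of the 10 genes around PDGFRA, 1 was lower in RECK than in Zeo and 0 higher. It was SCFD2, at 80.9 in RECK, 168 in RECK/4NQ and 193 in Zeo. SCFD2 was also called lower in RECK than in RECK/4NQ, where 4.47% of all genes were lower. Around PDGFC, 1 of 10 genes was lower in RECK than in Zeo, the glycine receptor gene GLRB (13.1 against 36.2), and 0 were higher. The share of all genes lower there was 6.7%. In RECK over Zeo, 2 of 10 genes around PDGFB were called higher and 0 lower, where 4.03% of all genes were higher. The 2 were the cytidine deaminase genes APOBEC3C (1596 against 741, 2.15-fold) and APOBEC3F (51.2 against 19.7, 2.59-fold). In RECK/4NQ over Zeo, APOBEC3G was 2.63-fold higher (458 against 174) and CBX7 was lower (all genes: 2.81% higher, 7.13% lower). CBX7, directly next to PDGFB, read 51.9 in RECK, 8.93 in RECK/4NQ and 38.2 in Zeo, the same order as the PDGFB probe set above the floor, and the ribosomal protein gene RPL3 on the other side read between 11249 and 11775. Next to PDGFA, FAM20C, a secreted kinase gene, read 787 in RECK, 1123 in RECK/4NQ and 367 in Zeo, higher in both RECK-form lines by more than 2-fold. On the other side PRKAR1B, a protein kinase A subunit gene, ran the other way, at 20.3 in RECK, 53.9 in RECK/4NQ and 71.3 in Zeo, and was called lower in RECK than in Zeo. Each was the 1 call in its direction among 6 neighbours of PDGFA there, where 4.03% of all genes were higher and 6.7% lower. These neighbours were chosen by position, and no test of a shared pattern was made.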
